A study of Mus musculus with 80 samples.

Results

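The genes described here are those of the cell division cycle and of DNA replication, measured in the lungs of 40 C57BL/6 mice. They were taken by symbol: cyclins A, B, D, E and G, the Cdk, Cdkn, Cdc and Cdca genes, the Mcm and Orc genes, Bub and Mad2 checkpoint genes, centromere proteins (Cenp), Aurora and polo-like kinases, Pcna, Rfc and DNA polymerase subunits, E2f factors, Top2a, Rrm genes, Mki67 and Birc5. Cdkn1c and Cdc42 were left out by the rule. The rule found 126 genes with 174 spots, of 7151 genes and 9663 spots that carry exactly 1 gene symbol. Of the 126 genes, 92 had 1 spot and 34 had several. A gene with several spots was represented by the spot of highest mean over the 40 mice, which lay on array A for 62 genes and on array B for 64.

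A cell divides after it has copied its chromosomes once, and both steps are ordered by cyclin-dependent kinases, whose cyclin partners are made and destroyed in turn. Before S phase the origin recognition complex and Cdc6 load the Mcm helicase onto origins, while Pcna, its loader Rfc and the polymerases copy DNA at the fork. Genes for these proteins are switched on together by E2F factors, and genes for mitosis by a second programme that acts through CHR and CCAAT elements. The lung of a mouse of about weaning age is still growing, whereas few cells divide in the unchallenged adult lung.

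All mice had the same strain background and regular feed without restriction until they were killed. The age groups were 17-44, 169-194, 476-499 and 704-743 days, each with 5 males and 5 females. The youngest group falls into 5 mice of 17-21 days (2 males and 3 females) and 5 mice of 33-44 days (3 males and 2 females). Lung RNA of each mouse was labelled with 33P and hybridised to 2 cDNA arrays, called A and B here, with 8448 spots each, so that 80 arrays were used. Each deposited value is a z score, the distance of a spot from the mean of all spots on its array in standard deviations of that array. Differences are therefore given in z units and not as folds, and the level of one spot is not read as more or less RNA than that of another. Mean z scores of spots are ranked or averaged only to choose the spot of a gene, to leave out dim spots, to summarise marker lists and to describe brightness. The sample description of 1 male of 714 days names a different mouse; without this male the number of genes that passed the test was the same in the comparison of mice of 169 days or older with mice of 17-21 days. In whole lung, fewer cells of a type and less RNA per cell cannot be told apart. Of the markers of alveolar type II cells 4 of 10 had a spot, and of those of endothelium 3 of 8; as a z score has no zero, presence of the tissue cannot be read from them.

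Most of these genes did not change detectably with age, and the changes that passed the test lay between the mice of 17-21 days and all older mice. Relative to 17-21 days, 25 of the 126 genes differed in the 30 mice of 169 days or older, 10 higher and 15 lower. The same test called 16.5% of all 7151 genes, 5.8% higher and 10.7% lower, so the share among the cell cycle genes is near the background. The median difference was -0.000667 z units for the 126 genes and 0.0149 for all genes. The genes that fell included Ccna2 (cyclin A2), Cdk2, Cdkn2c, E2f6 and Cenpi, and those that rose included Cdkn3, Ccnd2 (cyclin D2), Mcm4 and Mcm6. The proliferation markers Mki67, Top2a and Birc5 did not pass the test in either direction. Of the 25 genes, 24 lay on array B, and their direction followed that of the other spots in the same part of the array for 23, as described below. None of the 126 genes had all 30 adults above or all 30 below the 5 mice of 17-21 days, which 0.112% of all genes did.

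Markers of other cells moved with the same contrast. Of 5 erythroid genes with a spot 4 fell, Hba-a2 by 1.37 ± 0.218 z units and Alas2 by 0.518 ± 0.0891, and the mean level of the 5 was 1.3 to 1.65 at 17-21 days and 0.48 to 1.42 in adults. Of 5 fibroblast and matrix genes 4 fell, Sparc by 0.724 ± 0.1 and Col1a1 by 0.418 ± 0.0774, with a mean level of 1.15 to 1.36 against 0.57 to 1.20. Of 4 alveolar type II genes 2 fell, Lpcat1 by 0.374 ± 0.0832 and Slc34a2 by 0.266 ± 0.0911, with a median of -0.266 over the 4. Ighm, Cbr2 and Ltf rose, each the single call among 2 genes of B and plasma cells, 3 of club and ciliated cells and 4 of neutrophils. None passed of 3 endothelial genes or of the single genes of macrophages, alveolar type I cells and thymocytes. With spot position subtracted 4 erythroid genes, 2 matrix genes and Lpcat1 still passed, and Slc34a2, Ighm, Cbr2 and Ltf did not. The part of these cells in the differences of the cell cycle genes was not tested.

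**Figure D1:**
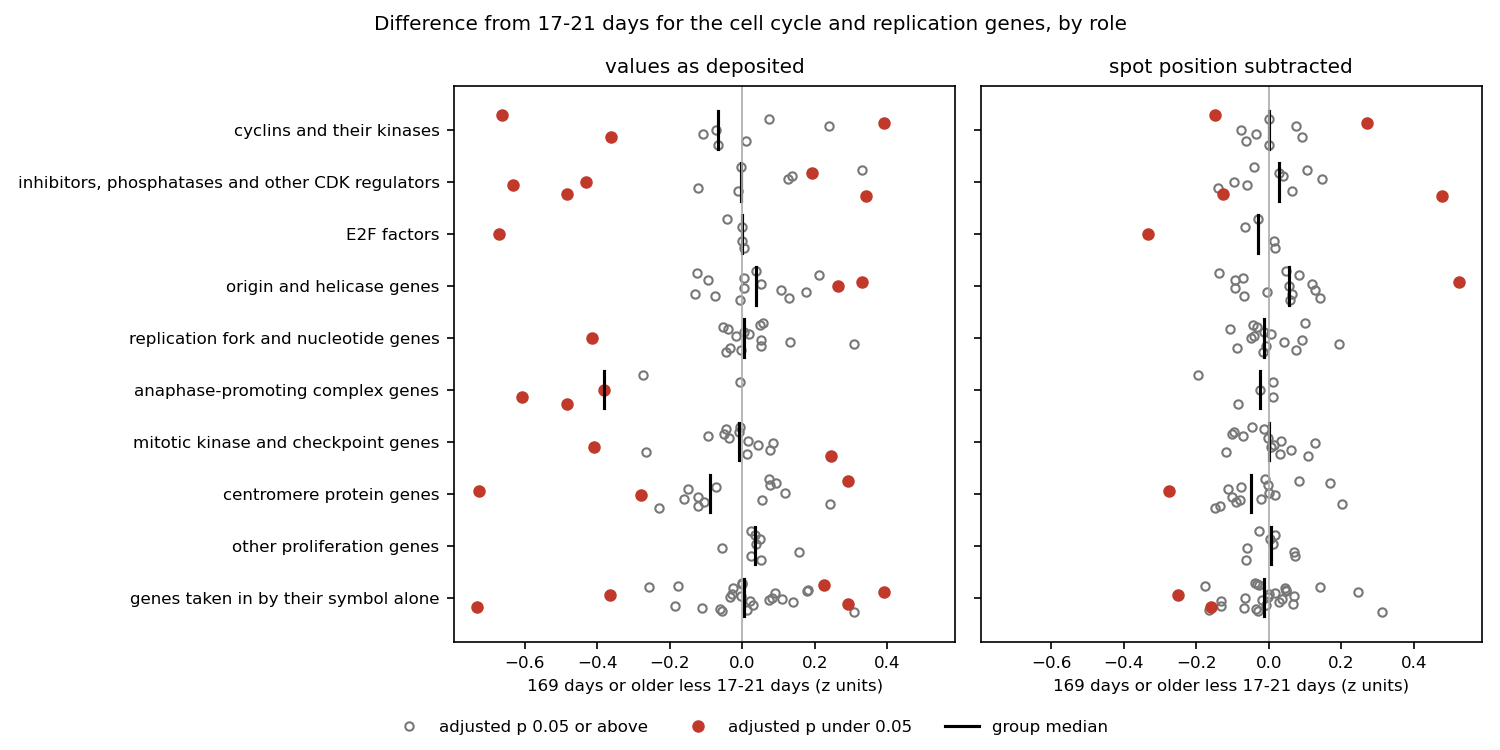
Difference between mice of 169 days or older (n = 30) and mice of 17-21 days (n = 5) for 126 genes grouped by role, in z units on the horizontal axis, with values as deposited on the left and after subtraction of the median shift of each block and column of spots on the right. Filled points passed limma's test at an adjusted p under 0.05 (25 genes on the left and 9 on the right) and vertical lines are group medians, which lie near 0 except for the anaphase-promoting complex genes on the left.

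Among the cyclins and the kinases they activate, 1 of 9 genes rose, 2 fell and 6 did not pass the test. Ccna2 encodes the cyclin that accompanies S phase and G2. Its levels at 17-21 days were 1.51, 1.20, 1.28, 1.49 and 1.45, in the order female and male of 17 days, female and male of 19 days and female of 21 days, which is kept throughout. In the 30 mice of 169 days or older the level ran from 0.28 over a median of 0.675 to 1.39. The 5 youngest mice were thus at the top of the range, and 27 of the 30 adults lay below the lowest of them. The level fell by 0.662 ± 0.113 z units (SE; adjusted p = 6.19e-05). At 33-44 days it was already down, at 0.55, 1.06, 0.65, 0.74 and 0.95.

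Cdk2, the kinase partner of cyclins E and A, stood at 0.25, 0.04, 0.21, 0.15 and 0.29 at 17-21 days and between -0.72 and 0.22 in adults, with a median of -0.135. It fell by 0.361 ± 0.101 z units (adjusted p = 0.00988), with 25 of 30 adults below all 5 of the youngest mice. Ccnd2, one of the D cyclins that carry growth signals to Cdk4 and Cdk6, moved the other way. Its levels were 1.70, 1.94, 1.95, 1.83 and 1.88 at 17-21 days and 1.86 to 2.63 in adults, with a median of 2.245. The groups overlapped little, as 28 of 30 adults exceeded all 5 of the youngest, and the rise was 0.390 ± 0.084 z units (adjusted p = 0.000724).

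Cdk1, the kinase that drives mitosis, gave 0.97, 1.55, 1.37, 1.70 and 1.70 at 17-21 days and 0.88 to 1.75 in adults, with a median of 1.335. The ranges overlapped almost wholly, and the difference was -0.107 with a 95% interval from -0.308 to 0.0934. Ccnb2, the mitotic cyclin B2, differed by 0.0741 (95% interval -0.105 to 0.253). Ccnd3 differed by 0.241 (0.0324 to 0.449; adjusted p = 0.131), while Ccne1, Cdk4 and Cdk6 lay between -0.0735 and 0.0119. None of these 6 genes passed the test in this comparison.

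**Figure D2:**
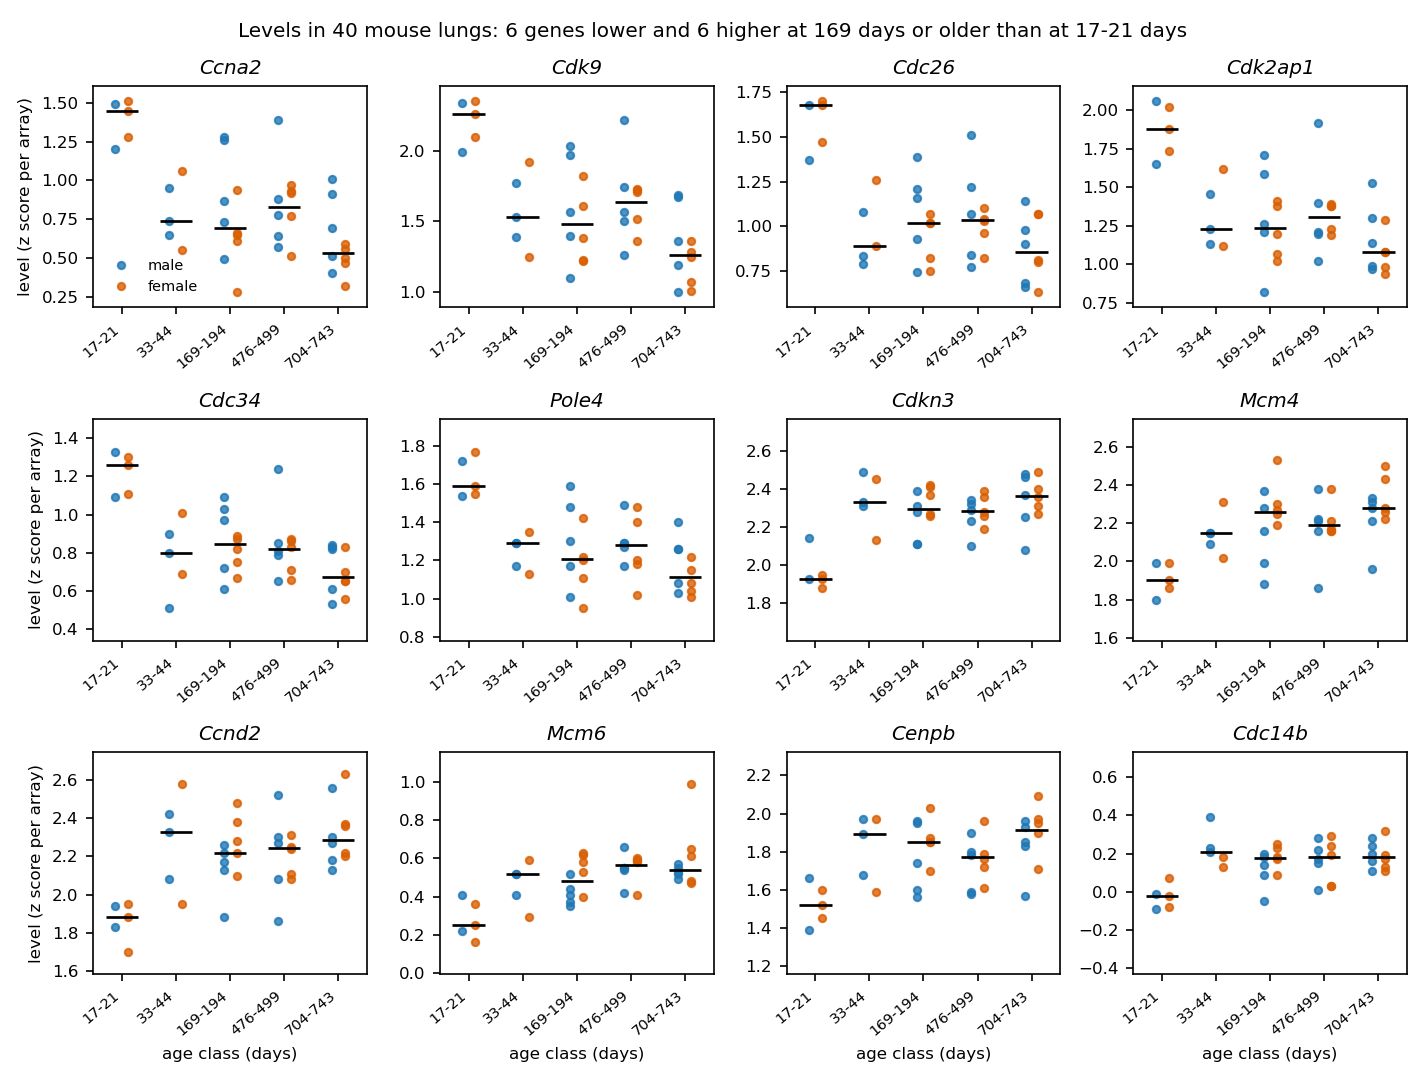
Level (z score per array, vertical axis) in each of 40 mice by age class (horizontal axis, days) for the 6 genes of smallest p in each direction, with males in blue, females in orange and bars at the class median. Ccna2, Cdk9, Cdc26, Cdk2ap1, Cdc34 and Pole4 were highest at 17-21 days and Cdkn3, Mcm4, Ccnd2, Mcm6, Cenpb and Cdc14b lowest, in class medians; the median of Ccna2 was 1.45 at 17-21 days and 0.74 at 33-44 days.

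Of 11 inhibitors, phosphatases and other regulators of these kinases, 2 rose and 3 fell. Cdkn3, a phosphatase that removes the activating phosphate of Cdk2 and Cdk1, gave 1.88, 2.14, 1.93, 1.93 and 1.95 at 17-21 days. Adults ran from 2.08 over a median of 2.31 to 2.49, so that 26 of 30 exceeded the highest of the youngest mice. The rise was 0.342 ± 0.0587 z units (adjusted p = 6.40e-05). Cdc14b, a phosphatase that counters Cdk1, rose by 0.193 ± 0.0491 from levels of -0.08, -0.01, 0.07, -0.09 and -0.02 (adjusted p = 0.0042).

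Cdkn2c, the p18 inhibitor of Cdk4 and Cdk6, fell. It stood at 1.58, 1.32, 1.40, 1.61 and 1.52 in the youngest mice and between 0.61 and 1.41 in adults, around a median of 1.035, a difference of -0.484 ± 0.0982 (adjusted p = 0.000357). Only 2 of 30 adults reached into the range of the youngest. Cdk2ap1, which binds Cdk2, had 2.02, 1.65, 1.74, 2.06 and 1.88 at 17-21 days and a median of 1.21 in adults, a fall by 0.632 ± 0.107 (adjusted p = 5.85e-05). Cdc34, the ubiquitin-conjugating enzyme that serves in the destruction of Cdk inhibitors, fell by 0.432 ± 0.0742 (adjusted p = 6.40e-05). The remaining 6 regulators did not pass. Cdc14a, a relative of Cdc14b, had the largest of their differences, 0.331 (95% interval 0.0315 to 0.631; adjusted p = 0.155). Cdkn1b, the p27 inhibitor, differed by -0.0102 (-0.183 to 0.163), and the activating phosphatases Cdc25a and Cdc25c by 0.137 (-0.0519 to 0.325) and 0.126 (-0.0799 to 0.331). Cdk2ap2 differed by -0.121 (-0.294 to 0.0518) and Ccng1 by -0.00271. Cdkn1a, Cdkn2b, Cdkn2d, Ccnb1, Ccnd1, E2f1 and Cdc45 were not analysed here.

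E2F factors switch S phase genes on or off. Of 5 measured, only E2f6, a repressor of the family, passed the test. Its levels were 2.16, 1.79, 1.90, 2.12 and 1.99 at 17-21 days and 0.82 to 2.01 in adults, with a median of 1.31. All but 3 of the 30 adults lay below the youngest mice, and the fall was 0.670 ± 0.123 z units (adjusted p = 0.00012). E2f4, E2f5, E2f7 and E2f8 differed by -0.042 to 0.00483.

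Promoter sequence was examined because genes of this group are known to share control elements. The RefSeq promoter table for GRCm38.p6 gives the 250 bases before and the 50 after a start site, and 110 of the 126 genes matched it by symbol, with 128 start sites. Searched on both strands were the E2F letters TTTCCCGC, TTTGGCGC, TTTGCCGC and TTTCGCGC, the CHR letters TTTGAA and TTCGAA, and CCAAT. Overlapping matches were each counted. E2F letters stood in 17.2% of the genes' promoters (22 of 128) and in 2.26% of all 32851 promoters of the table. CHR letters were found in 26.6% against 19.2%, CCAAT in 55.5% against 37.4%, and CHR letters together with CCAAT in 18.8% against 7.52%. A match describes letters, not a bound site. The 21 genes with E2F letters included Mcm3, Mcm5, Mcm6, Mcm7, Cdc6, Orc1, Cdk1 and Cdk2; 2 of them rose and 3 fell, with a median difference from 17-21 days of 0.000364. Among the 89 genes with a promoter entry but no such letters 6 rose and 10 fell, with a median of -0.00188. The 31 genes with CHR letters had 2 that rose and 1 that fell, with a median of 0.0161, and the 79 without them 6 and 12, with a median of -0.00402.

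Promoters of 4 genes are printed to show these letters, in capitals, in the 250 bases before the start, with Mcm6 and Cdkn3 as genes that rose and Cdk1 and Cdc20 as genes that did not pass the test. The Mcm6 promoter (chr1:128359706-128359955, minus strand) holds 3 matches to the E2F letters, of which those that begin 110 and 106 bases before the start overlap, and the last begins 47 bases before it. The Cdk1 promoter (chr10:69352913-69353162, minus strand) has E2F letters 131 bases and CHR letters 71 and 15 bases before the start, with 3 CCAAT matches. The Cdc20 promoter (chr4:118437344-118437593, minus strand) has CHR letters 18 bases before the start, between 2 CCAAT matches. The Cdkn3 promoter (chr14:46760291-46760540, plus strand) has CHR letters on the reverse strand 111 bases before the start, and 3 CCAAT matches.
Mcm6: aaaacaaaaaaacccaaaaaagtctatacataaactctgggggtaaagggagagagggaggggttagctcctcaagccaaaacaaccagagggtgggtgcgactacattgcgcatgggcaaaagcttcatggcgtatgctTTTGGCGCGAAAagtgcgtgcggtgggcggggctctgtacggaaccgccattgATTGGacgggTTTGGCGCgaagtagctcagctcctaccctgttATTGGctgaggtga
Cdk1: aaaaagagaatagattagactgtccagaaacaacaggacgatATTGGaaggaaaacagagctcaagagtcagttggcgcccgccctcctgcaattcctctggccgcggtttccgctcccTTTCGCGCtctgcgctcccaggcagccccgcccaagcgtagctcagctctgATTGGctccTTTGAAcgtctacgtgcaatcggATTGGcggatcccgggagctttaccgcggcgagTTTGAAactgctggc
Cdc20: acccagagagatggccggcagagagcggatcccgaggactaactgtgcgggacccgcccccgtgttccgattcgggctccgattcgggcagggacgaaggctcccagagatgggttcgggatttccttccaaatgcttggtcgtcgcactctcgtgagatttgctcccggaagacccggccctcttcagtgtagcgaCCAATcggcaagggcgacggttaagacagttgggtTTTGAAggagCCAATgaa
Cdkn3: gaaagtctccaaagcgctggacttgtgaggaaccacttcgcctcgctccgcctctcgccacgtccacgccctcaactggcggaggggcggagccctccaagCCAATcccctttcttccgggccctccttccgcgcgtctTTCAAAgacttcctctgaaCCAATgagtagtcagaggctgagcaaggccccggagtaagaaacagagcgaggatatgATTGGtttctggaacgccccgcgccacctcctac

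Of 15 genes that license origins or form the replicative helicase, 2 rose, none fell and 13 did not pass the test. Mcm4 and Mcm6 are subunits of the Mcm2 to Mcm7 helicase. Mcm4 gave 1.90, 1.99, 1.99, 1.80 and 1.86 at 17-21 days and 1.86 to 2.53 in adults, around a median of 2.235. Mcm6 gave 0.16, 0.22, 0.25, 0.41 and 0.36 against an adult range of 0.35 to 0.99 and a median of 0.545. In both genes most adults lay above all of the youngest mice, 26 of 30 for Mcm4 and 25 of 30 for Mcm6. The rises were 0.332 ± 0.0692 z units (adjusted p = 0.000506) and 0.265 ± 0.0585 (adjusted p = 0.000964).

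The other subunits of the same helicase did not pass. Mcm2 differed by 0.00574 (95% interval -0.222 to 0.234), Mcm3 by -0.0956 (-0.267 to 0.0758), Mcm5 by 0.0528 (-0.154 to 0.26) and Mcm7 by 0.00444 (-0.179 to 0.188). Mcm5 was uneven in the youngest mice, with -0.01 in the female of 17 days and 0.67 to 1.03 in the other 4. The origin subunit Orc1 differed by -0.131, Orc6 by -0.00717 and Cdc6, the helicase loader, by 0.0385, each with an interval that includes 0. Mcm8 had the widest spread of the 15, from -5.97 in the female of 33 days to -1.65 over all 40 mice, and differed by 0.107 (-0.518 to 0.731).

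At the replication fork and in nucleotide supply, 1 of 15 genes passed. Pole4, a small histone-fold subunit of DNA polymerase epsilon, stood at 1.77, 1.54, 1.59, 1.72 and 1.55 at 17-21 days and at 0.95 to 1.59 in adults. With 29 of 30 adults below all 5 of the youngest mice, it was the gene whose groups came closest to separating, and it fell by 0.415 ± 0.0727 z units (adjusted p = 7.53e-05). Pcna, the sliding clamp, gave 0.13, 0.47, 0.27, 0.26 and 0.50 at 17-21 days and -0.12 to 0.86 in adults. Its difference was 0.0584 with a 95% interval from -0.16 to 0.277. Rrm2, the regulated subunit of ribonucleotide reductase, gave 2.02, 2.00, 1.96, 1.72 and 1.83 against 1.55 to 2.27, a difference of -0.00402 (-0.17 to 0.162). Rrm1, its partner, differed by -0.034 (-0.332 to 0.264) and Rfc3, a clamp loader subunit, by 0.308 (0.074 to 0.543; adjusted p = 0.0714).

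The anaphase-promoting complex marks cyclins and securin for destruction. Of the 5 genes for subunits of the complex and its activator that the symbol rule took in, 3 fell and none rose, with a median difference of -0.38. Cdc26 gave 1.70, 1.37, 1.47, 1.68 and 1.68 at 17-21 days and 0.63 to 1.51 in adults, around a median of 1.0, a fall by 0.609 ± 0.0949 z units (adjusted p = 4.21e-05). Cdc23 fell by 0.38 ± 0.0882 from 2.01, 1.82, 1.94, 2.07 and 1.94 (adjusted p = 0.00166). Cdc27, on array A, fell by 0.484 ± 0.138 from -0.61, -0.97, -0.90, -0.47 and -0.70 (adjusted p = 0.0112). Each of the 3 had at least 25 of 30 adults below all of the youngest mice. Cdc16 differed by -0.273 (95% interval -0.494 to -0.0526; adjusted p = 0.0968) and the activator Cdc20 by -0.00661 (-0.206 to 0.193). None of the 3 falls passed once the position of the spot was taken into account. Other genes of the complex, outside the rule, did not fall. Anapc1 rose by 0.262 ± 0.0733 (adjusted p = 0.00993) and by 0.249 with spot position subtracted (adjusted p = 0.0127). Anapc2, Anapc4, Anapc5, Anapc7, Anapc10, Anapc11 and the activator Fzr1 did not pass either way.

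Of 14 mitotic kinase and checkpoint genes 1 rose and 1 fell. The fall was that of Mad2l1bp, which encodes a partner of Mad2 that silences the spindle checkpoint, by 0.408 ± 0.0866 z units (adjusted p = 0.000612). Plk5, a polo-like kinase relative, rose by 0.245 ± 0.076 (adjusted p = 0.022). The checkpoint and chromosomal passenger genes that define mitotic cells did not pass: Birc5 (survivin) gave 0.18, -0.11, 0.02, -0.20 and -0.19 at 17-21 days and -0.34 to 0.18 in adults, a difference of -0.0507 (95% interval -0.191 to 0.0892). Aurka differed by -0.00679 (-0.195 to 0.181), Aurkb by -0.0441 (-0.245 to 0.157), Plk1 by 0.078 (-0.207 to 0.363) and Bub1 by -0.094 (-0.256 to 0.0683). Bub1b, Bub3 and Mad2l1 lay between -0.035 and 0.0439.

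Of 16 centromere protein genes 1 rose and 2 fell. Cenpi, a subunit of the constitutive centromere complex, had 2.28, 2.04, 2.13, 2.35 and 2.31 at 17-21 days and 0.93 to 2.20 in adults, with a median of 1.455. In 28 of 30 adults it was below all of the youngest mice, and it fell by 0.726 ± 0.13 z units (adjusted p = 9.60e-05). Cenpl, of the same complex, fell by 0.279 ± 0.0692 (adjusted p = 0.00333). Cenpb, which binds centromeric repeats, rose by 0.293 ± 0.0711 from 1.45, 1.66, 1.60, 1.39 and 1.52 (adjusted p = 0.00265). The centromeric histone Cenpa differed by 0.0737 (95% interval -0.145 to 0.292) and the mitotic motor Cenpe by 0.0767 (-0.0752 to 0.229).

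None of 8 other proliferation genes passed. Mki67, the Ki-67 antigen of cycling cells, gave 0.53, 0.38, 0.61, 0.65 and 0.45 at 17-21 days, and adults ran from 0.09 over a median of 0.49 to 0.91. Top2a, the topoisomerase of dividing cells, gave -0.12, -0.13, -0.18, -0.11 and -0.14 against -0.22 to 0.15. In both genes the youngest mice lay inside the adult range. The differences were 0.0255 (95% interval -0.178 to 0.229) and 0.053 (-0.0336 to 0.14). These intervals hold the differences that are compatible with the values, with only 5 mice of 17-21 days. They do not give the smallest change that the adjusted test would call. Rfc3, for example, had an interval that excludes 0 and did not pass.

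**Figure D3:**
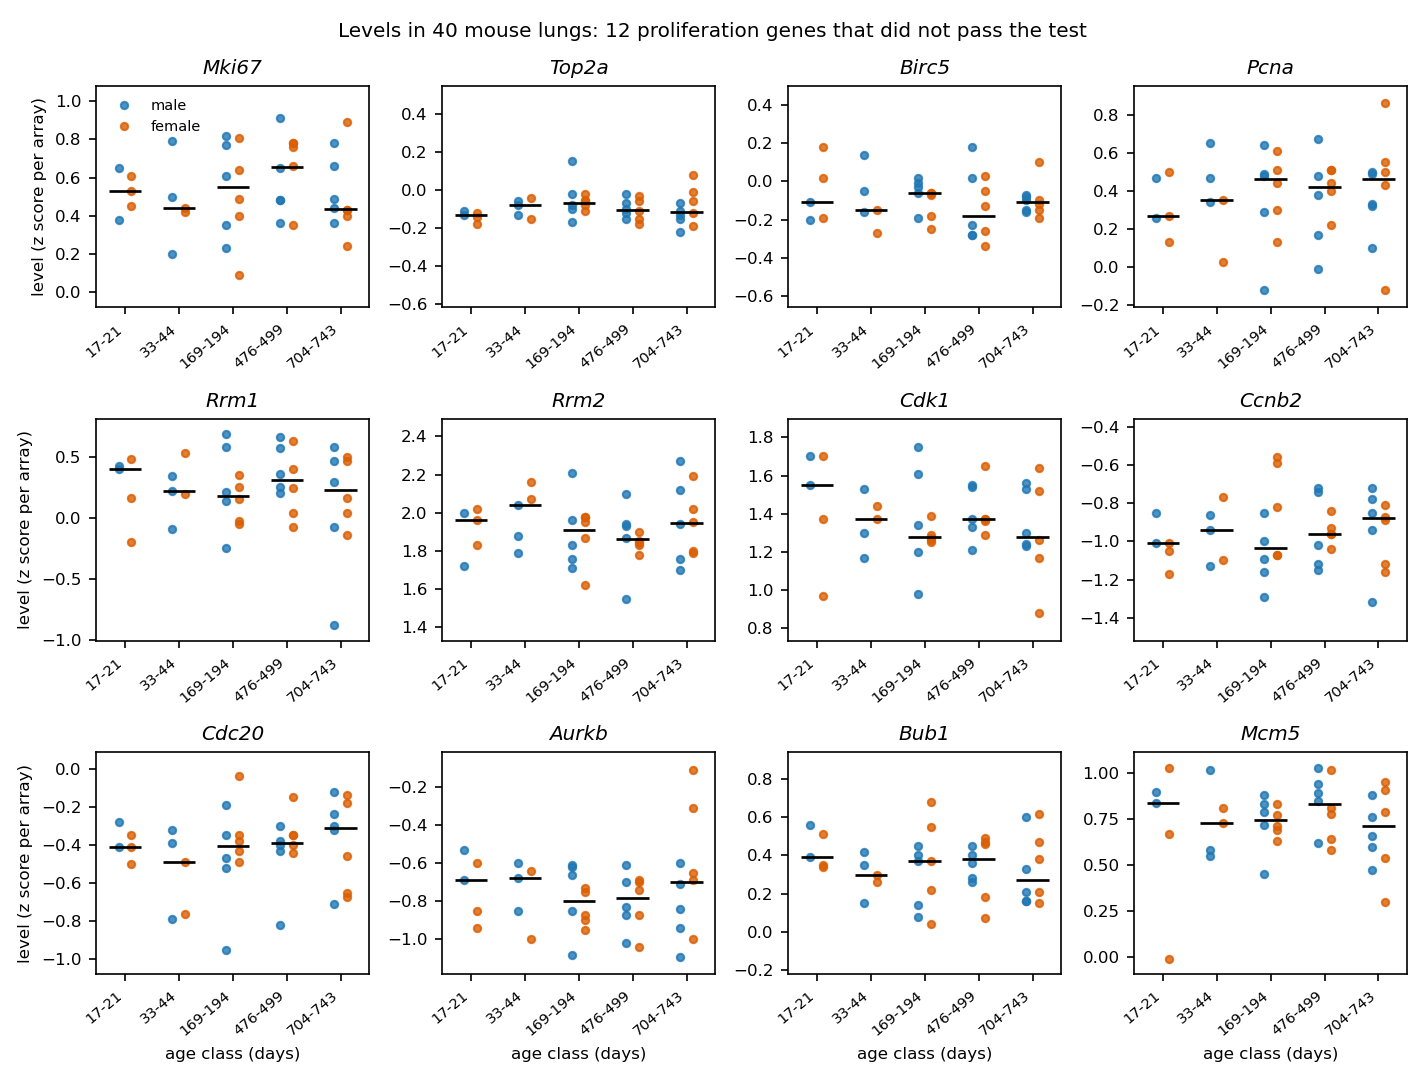
Level (z score per array, vertical axis) in each of 40 mice by age class (horizontal axis, days) for 12 proliferation genes that did not pass the test, with males in blue, females in orange and bars at the class median. For Mki67 the 5 mice of 17-21 days lie between 0.38 and 0.65 and the adults between 0.09 and 0.91, and none of the 12 genes shows the youngest mice apart.

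The remaining 28 genes were taken in by symbol although most of them act mainly outside the division cycle. Of these 28 genes 3 rose and 2 fell. Cdk9, the kinase that releases paused RNA polymerase II, showed the largest fall among the 126 genes in the values as deposited, though not with spot position subtracted, where E2f6, Cenpi and Cdc73 fell more. It stood at 2.35, 1.99, 2.10, 2.34 and 2.26 at 17-21 days and at 1.0 to 2.22 in adults, with a median of 1.45 and 28 of 30 adults below the youngest mice. The fall was 0.732 ± 0.124 z units (adjusted p = 5.82e-05). Cdc73, a subunit of the Paf1 elongation complex, fell by 0.364 ± 0.095 (adjusted p = 0.00524). Cdc42se1, Cdk5rap3 and Cdc40 rose by 0.391, 0.291 and 0.225. The other 98 genes gave 20 of the 25 calls, which is 20.4% of them against 17.9% of the 28. Genes named here beyond the 6 of smallest p in each direction and a list of well-known cell cycle genes were chosen after their values were seen.

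Place on the array moved with these results. Spots are numbered in 16 blocks of 24 lines and 22 columns, and on array B the columns 7 to 12 held 945 of the 1097 spots that fell and 180 of the 1004 that rose. They also held 14 of the 15 genes that fell. Column 11, within that range, differed from its neighbours, with 70 rises and 0 falls. Column 9 alone, where Ccna2, Cdk9, Cdk2ap1 and Pole4 lie, had 307 falls and 15 rises among 384 spots, with a median of -0.428 z units. In column 15, with Mcm6, Cenpb and Cdc14b, 120 spots rose and none fell. Array A called 298 spots against 2101 on array B, and among the cell cycle genes 1 of 62 against 24 of 64; all genes on these arrays were called in 3.7% and 28.3%.

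**Figure D4:**
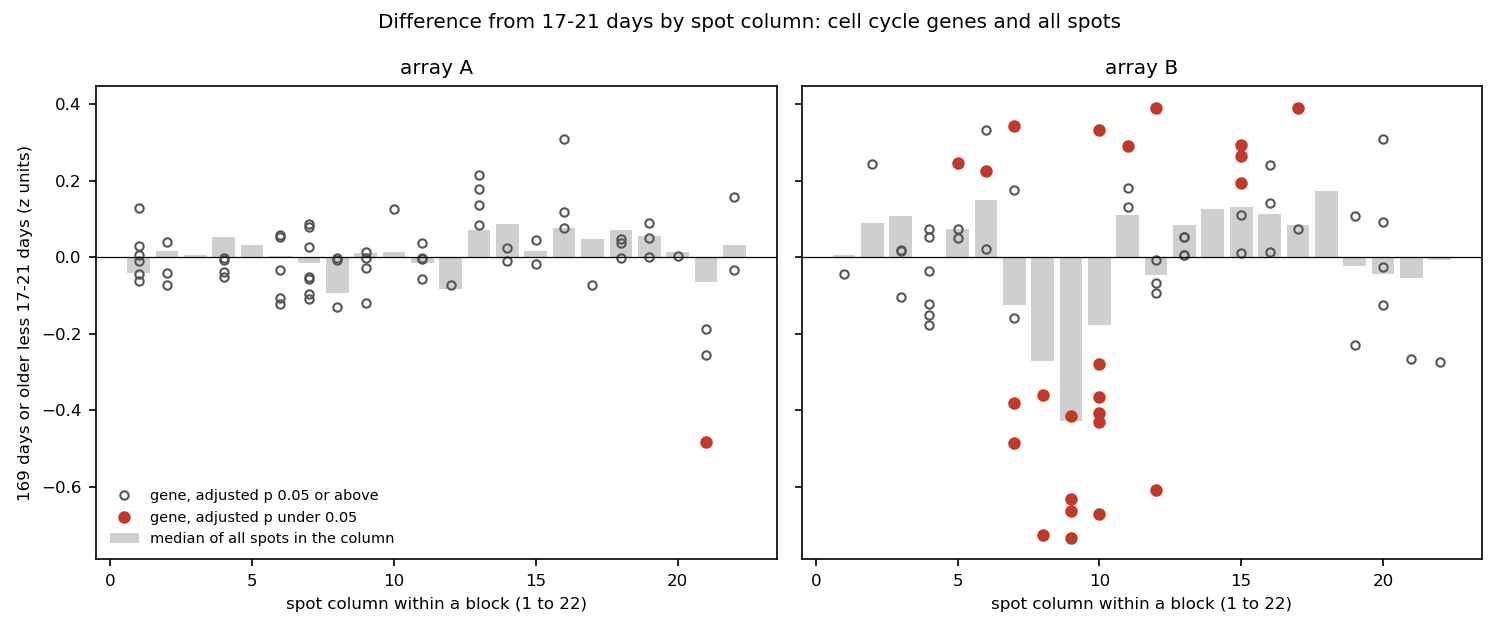
Difference between mice of 169 days or older (n = 30) and of 17-21 days (n = 5) in z units (vertical axis) for the 126 genes by the column of their spot within a block (horizontal axis), array A left and array B right, with grey bars at the median of all 384 spots of a column. Filled points passed limma's test at an adjusted p under 0.05. The falls gather in columns 7 to 10 and 12 of array B, where the median of all spots reaches -0.428. Column 11 between them has a median of 0.111.

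When the median shift of each block and column was subtracted from every array, 9 of the 25 genes passed, 3 higher and 6 lower, and no gene was added. In the same fit 9.66% of all genes passed, 3.99% higher and 5.68% lower, so that the members' share, 9 of 126, is not above the background. Mcm4 rose by 0.526 ± 0.102 z units (adjusted p = 0.00054), Cdkn3 by 0.477 ± 0.0825 (adjusted p = 0.000148) and Ccnd2 by 0.271 ± 0.0718 (adjusted p = 0.0108). Mcm4 and Cdkn3 thus differed more than before, since they rose in columns of array B where falls outnumbered rises. Falls led by 172 to 20 in column 10 (Mcm4) and by 158 to 29 in column 7 (Cdkn3). The subtraction takes the same shift off every spot of a block and column, whatever its brightness. Cdkn3, Ccnd2 and Mcm4 had the highest mean z scores of the 126 genes, 2.27, 2.20 and 2.18. The part of spot brightness in these rises was not tested. E2f6 fell by 0.334 ± 0.0696 (adjusted p = 0.00112), Cenpi by 0.275 ± 0.0606 (adjusted p = 0.00196) and Cdc73 by 0.25 ± 0.0731 (adjusted p = 0.023). Smaller falls were left for Cdk9 (-0.16 ± 0.0436; adjusted p = 0.0134), Ccna2 (-0.148 ± 0.0445; adjusted p = 0.0274) and Cdkn2c (-0.127 ± 0.032; adjusted p = 0.00677). The median over the 15 genes that fell went from -0.484 to -0.0862, and over the 10 that rose from 0.292 to 0.0963. Mcm6 kept 0.0561 ± 0.045 (adjusted p = 0.603). The sign turned for 5 of the 25 genes: the difference became 0.0124 for Cdc26, 0.0909 for Cdk2, 0.0072 for Mad2l1bp, 0.0176 for Cenpl and -0.026 for Cdc40, none of which passed. Such a subtraction also removes any change that the spots of a block and column share, and the part of spot position in the deposited differences was not tested further.

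Spots of the same gene did not move alike. The 34 genes with several spots gave 37 pairs on the same array and 31 across arrays. After age class and sex were taken out, the median correlation over the 40 mice was -0.0143 for pairs on the same array and 0.0224 for pairs across arrays. Pairs of different genes in the same column of an array had a median of 0.22 over 187 pairs, which became 0.0171 with spot position subtracted. The 15 pairs among Mcm2 to Mcm7 had a median of 0.183 and 0.0952 after the subtraction. These values describe pairs that share arrays and mice.

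**Figure D5:**
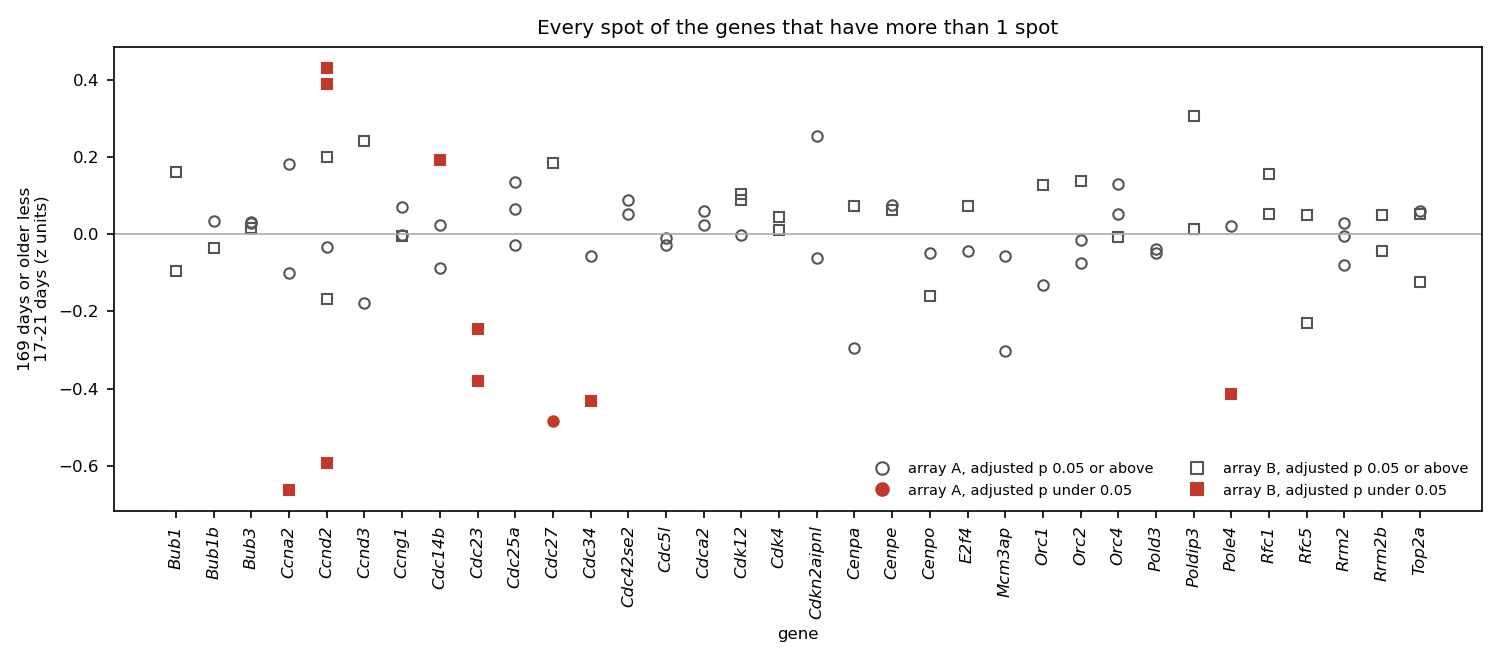
Difference between mice of 169 days or older (n = 30) and of 17-21 days (n = 5) in z units (vertical axis) for every spot of the 34 genes with more than 1 spot (horizontal axis), circles for array A and squares for array B, filled where limma's adjusted p was under 0.05. Ccnd2 has spots that rose and a spot that fell, and Cdc23 has 2 spots that both fell.

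Of 7 genes with several spots and at least 1 call, Cdc23 had both spots called in the same direction, by -0.38 and -0.245. Ccnd2 had 6 spots: 2 rose, by 0.39 and 0.431, 1 fell by 0.592 and 3 did not pass. For Ccna2 the other spots, both on array A, gave 0.182 ± 0.179 and -0.101 ± 0.305. The array B spot of Cdc27 gave 0.185 against a fall by 0.484 on array A, the array A spot of Pole4 0.0228 and that of Cdc34 -0.0552. The direction given above for each of these genes is that of its brightest spot.

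Between 17-21 and 33-44 days, the step at which the lung passes weaning age, 17 of the 126 genes passed, 2 higher and 15 lower, against 9.2% of all genes (1.86% higher and 7.34% lower). Ccna2 fell by 0.587 ± 0.111 z units (adjusted p = 0.0154) and Cdc26 by 0.583 ± 0.104 (adjusted p = 0.015), with all 5 mice of 33-44 days below all 5 younger ones in both genes. Plk2, a polo-like kinase induced by stress and growth signals, gave -1.17, -1.10, -1.19, -1.05 and -1.09 at 17-21 days and -1.66, -1.39, -1.52, -1.40 and -1.44 at 33-44 days. Its groups did not overlap, and it fell by 0.377 ± 0.075 (adjusted p = 0.016). The groups did not overlap for 16 of the 126 genes, 3 higher and 13 lower, and for 10.1% of all genes (2.53% higher and 7.59% lower). Cdk2, Cenpi and Pole4 fell by 0.403, 0.636 and 0.388. Cdkn3 rose by 0.356 ± 0.0845 (adjusted p = 0.0269) to 2.45, 2.13, 2.31, 2.49 and 2.33, and Cdc42se1 by 0.465 ± 0.12 (adjusted p = 0.0357). No gene passed limma's adjusted test with spot position subtracted, and 0% of all genes did. In that fit 19 had an unadjusted p under 0.05, against 16.8% of all genes, and 4 of the 17 genes turned sign, namely Cdk2, Cdc23, Cdc42bpb and Mad2l1bp. When mice were compared within 5 sets of consecutive title numbers, as chosen after seeing the data, none passed. Set 3 holds 2 mice of 17-21 days and set 5 holds 0, so neither set compares the 2 ages. In the other sets the young mice of the 2 ages also differed in sex. That fit rested on few mice, and its lack of calls does not test the 17 genes. None passed either among the mice with title numbers of 46 or lower or with that number as a block. These are nearly the same fit, as 2 mice of 33-44 days and 0 of 17-21 days have title numbers above 46. Leaving out the male of 19 days or the female of 33 days also left none, and leaving out the female of 17 days or that of 21 days left 6 and 7.

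Against age as a straight line over all 40 mice, no gene of the group passed limma's adjusted test, and 0.028% of all genes did. An unadjusted p under 0.05 was reached by 9 genes with a positive slope and 14 with a negative one, 23 of 126, against 15.5% of all genes (5.13% positive and 10.4% negative). The smallest adjusted p, 0.0537, belonged to Mcm6 (0.0286 ± 0.0076 z units per 100 days), E2f6 (-0.0656 ± 0.0175) and Cdk9 (-0.0688 ± 0.0185). Ccna2 and Cdc34 followed at -0.0574 and -0.0376 (adjusted p = 0.0656 for both). Mki67 had a slope of 0.00627, Top2a of -0.000841 and Pcna of 0.00559. On a log2 scale of age 15 genes passed, 4 higher and 11 lower, against 9.01% of all genes (1.4% higher and 7.61% lower). Without the dimmest 33.3% of spots 8 passed, 1 higher and 7 lower, against 4.99% of the 5129 genes left (0.351% higher and 4.64% lower). Fewer than the 126 genes of the group were left in that fit, so the 8 is not a share of 126. The count was also above 0 when 1 mouse was left out, for 11 of the 40 mice, with 3 to 9 genes.

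Within adult life no gene passed. Over the 30 mice of 169 days or older, limma's test called none of the 126 genes and 0% of all genes, with 2 genes at an unadjusted p under 0.05, against 2.59% of all genes. Those were Cenpf, a kinetochore protein, at -0.032 ± 0.0148 z units per 100 days (unadjusted p = 0.0375) and Cdc34 at -0.0258 ± 0.0125 (unadjusted p = 0.0468). From 169-194 to 704-743 days the count was again none, against 0.014% of all genes, with Cenpf alone at an unadjusted p under 0.05, as were 2.31% of all genes. Cenpf ran from -0.72 over a median of -0.455 to -0.15 in the younger of these groups and from -0.92 over -0.65 to -0.31 in the older, so that the groups overlapped. Its difference was -0.178 ± 0.0767. Mcm6, Aurka and Plk1 had the smallest p on the positive side, with 0.101 ± 0.0571, 0.151 ± 0.0872 and 0.218 ± 0.129. From 17-44 to 169-194 days none passed either (0% of all genes); 3 genes were higher and 10 lower at an unadjusted p under 0.05, against 7.24% of all genes (1.29% higher and 5.96% lower), among them Mcm4 (0.196 ± 0.0705) and Cdk2ap1 (-0.324 ± 0.118).

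Males and females did not differ detectably. Limma's test called none of the 126 genes, and none had an unadjusted p under 0.05, against 1.47% of all genes at that level and 0% after adjustment. The smallest p in each direction belonged to Cdk18 at 0.153 ± 0.0856 z units (male less female) and Orc1 at -0.108 ± 0.058, while the largest differences were those of Mcm8 (0.241) and Cdc42bpb (-0.146). For Orc1 the males ran from -1.10 over -0.685 to -0.43 and the females from -0.87 over -0.615 to -0.24, which overlap. Slopes with age did not differ between the sexes for any gene after adjustment (0% of all genes), and Aurkb alone of the group was under an unadjusted 0.05, as were 1.83% of all genes. Its slope differed by -0.0558 ± 0.0226 z units per 100 days (males less females).

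Other genes of the same processes, from lists drawn up for this description, were read in the same contrast of 169 days or older with 17-21 days, in which 5.8% of all genes rose and 10.7% fell. Of 31 other replication and nucleotide genes 1 rose and 5 fell, of 62 other mitosis and chromosome genes 2 rose and 8 fell, and of 29 other cell cycle control genes 2 rose and 2 fell. With spot position subtracted the counts were 0 and 1, 4 and 4, and 3 and 0, against 3.99% and 5.68% of all genes. Genes named from these lists were chosen after their values were seen. Slbp, which binds the histone mRNAs of S phase, fell by 0.493 ± 0.0831 z units and by 0.259 with spot position subtracted (adjusted p = 0.000109). Pttg1, securin, fell by 0.641 ± 0.122 and by 0.623 with position subtracted (adjusted p = 0.00012). Hmgb2, a chromatin protein of proliferating cells, fell by 0.404 and by 0.171 (adjusted p = 0.0166). For Stmn1, a microtubule regulator, a fall by 0.56 became a difference of 0.0124, and for Gmnn, which blocks relicensing of origins, a fall by 0.337 became a difference of -0.2 (adjusted p = 0.0823). Fbxw7, the ubiquitin ligase subunit for cyclin E, rose by 0.345 ± 0.0734 and by 0.268 with position subtracted (adjusted p = 0.00309). Other genes passed only with position subtracted: Espl1, the separase that cuts cohesin, went from -0.00663 to a rise by 0.444 (adjusted p = 0.00246) and Smc3, a cohesin subunit, from 0.0259 to 0.259 (adjusted p = 0.000658). Cks1b, Foxm1 and Btg1 rose there by 0.289, 0.205 and 0.271. Smc1a, another cohesin subunit, went the other way from Smc3. It fell by 0.224 ± 0.0618 z units and by 0.236 with position subtracted (adjusted p = 0.0045).

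Of 8 imprinted and growth genes of juvenile tissue with a spot, 2 rose (H19 and Cdkn1c) and 1 fell (Plagl1). Igf2, Dlk1, Meg3, Peg3 and Gpc3 did not pass. Cdkn1c, the p57 inhibitor, rose by 0.298 ± 0.0612 z units and by 0.126 with position subtracted (adjusted p = 0.0408). With position subtracted H19 differed by 0.229 (adjusted p = 0.144) and Plagl1 by -0.17 (adjusted p = 0.11), so that Cdkn1c alone of the 8 passed.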

How the data were processed

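RNA from 40 lungs was measured on 80 arrays. The authors deposited a score per spot, a z score per array: from the values, each array has mean 0 and SD 1. For the scale under it, its log base, the background correction and the software, no source used here gives an answer. Genes were named from the platform annotation; all 126 gene numbers were found in the RefSeq table of GRCm38.p6. Members, roles, lists and the naming rule were chosen with earlier results of these data known. The rule names the 6 genes of smallest p per direction among those that passed, up to 4 per direction otherwise, and a list of well-known cell cycle genes.

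Each array table was fitted apart with limma 3.58.1 (R 4.3.3), with age class and sex, age and sex, or sex and age group as terms, in 8 comparisons. All tests were two-sided, and p-values were adjusted by Benjamini-Hochberg over the 16896 spots of both tables; an adjusted p under 0.05 passed. Errors after ± are standard errors, and mice are the replicates. Scripts were tested on simulated data with independent spots. The simulation held no shift by spot position or title number set, so it does not show how the tests behave under such shifts. Precision is limited by the number of mice, above all the 5 of 17-21 days. The alternatives tried were subtraction of spot position (the median deviation of all spots of a block and column from their means, taken off each array), a fit without the dimmest 33.3% of spots, quantile normalization, eBayes with trend, the number in the sample title as a split or block, sets of consecutive title numbers as a block, means over the spots of a gene, log2 of age, and leaving out each mouse. No deposited column was left unused.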

Additional observations from a re-analysis of the deposited data

Results flagged for a closer look

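In 23 of 230 sets of values (46 genes in 5 age classes), 1 mouse stood apart from the rest of its class by a gap that was large for the range of the class. The nominal rate of about 1 in 20 holds for independent, normally spread values. These sets share mice, arrays and spot columns, and no share over all genes is given. The 23 are therefore not read as more or fewer than chance gives. A male of 476 days, in its class of 476-499 days, was highest for Ccna2 (1.39), Cdc34 (1.24), Cdk2ap1 (1.92) and Cdk9 (2.22) and lowest for Mcm4 (1.86), all on array B. These 5 genes differed between 17-21 days and adults, and in each this male lay nearest the youngest mice of all mice in its class. Their spots lie in neighbouring columns of that array, column 9 (Ccna2, Cdk9 and Cdk2ap1) and column 10 (Cdc34 and Mcm4). Values that share a mouse and an array are not independent, and the part of spot position was not tested. Without this male the comparison of 169 days or older with 17-21 days still called 25 genes.

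A male of 194 days was lowest of 169-194 days for Cdc14b (-0.05), Cdc20 (-0.95) and Plk1 (-1.44) and highest for Top2a (0.15). The lowest Cdc20 of 476-499 days was -0.82, in a male of 495 days, and the lowest Cdk6 of that class was -1.32, in a male of 498 days. At 704-743 days a female of 704 days was highest for Birc5 (0.10) and Mcm6 (0.99). A male of 733 days was highest for Aurka (0.08) and lowest for Rrm1 (-0.88). The highest Ccne1 of that class (-0.52) came from the male of 714 days whose labels conflict.

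In the young mice, the female of 17 days was lowest of 17-21 days for Orc1 (-0.8) and Orc6 (-0.61), and the male of 17 days was highest for Cdkn3 (2.14) and lowest for Mcm7 (-0.67). At 33-44 days a male of 43 days was lowest for Cdk6 (-1.9) and Orc6 (-0.69), and a male of 44 days for Cdkn1b (-0.19).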

How the results depend on the processing

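Over the alternatives, the comparison of 169 days or older with 17-21 days called 23 to 28 genes, except with spot position subtracted (9), with that together with title numbers of 46 or higher as a block (10) and with that together with title number sets as a block (9), the blocks chosen after seeing the data; leaving out single mice gave 21 to 26. For 33-44 less 17-21 days the 17 calls became 0 with spot position subtracted and among title numbers of 46 or lower. They also became 0 with title numbers above 46 as a block, which is nearly the fit among 46 or lower. Above 46 are 2 mice of 33-44 days and 0 of 17-21 days. The block of 46 or higher, added after seeing the data, is here the same fit as the block above 46, since the mouse numbered 46 is of 169 days. That block and position together gave 0 too. Title number sets as a block gave 0 with or without position subtracted, in fits that had few mice to compare within a set. Leaving out single mice gave 0 to 22. The labels do not say that the title number is a batch. The slope over all mice went from 0 to 8 calls without the dimmest 33.3% of spots, to 15 on log2 of age, to 3 with the sets as a block, and to 0 to 9 without single mice. It was above 0 without male 1 or 5 or female 5 of 17-44 days, male 1 or 3 or female 2, 3 or 5 of 169-194 days, male 2 of 476-499 days, or male 1 or 4 of 704-743 days, with mice named by sex and replicate. With position subtracted, 4 of 17 called genes turned sign at 33-44 days, Cdk2 (0.0502), Cdc23 (0.0661), Cdc42bpb (0.0501) and Mad2l1bp (0.02), and 5 of 25 in adults, Cdk2 (0.0909), Cdc26 (0.0124), Mad2l1bp (0.0072), Cenpl (0.0176) and Cdc40 (-0.026). With the block of 46 or higher too, Cdk2 (0.0184) and Cdc26 (0.00423) turned at 33-44 days and Cdk2 (0.0732), Cdc26 (0.036) and Cenpl (0.0462) in adults; with the sets and position, Cdk2 (0.0805), Cdc26 (0.0155), Cenpl (0.0234) and Cdc40 (-0.0176) in adults. Apart from what position subtraction and fewer mice do by construction, the cause was not tested. The other 5 comparisons called 0 genes under every alternative that gave a value. Counts with single mice left out, here and above, and the other counts of this section stand without a share of all genes. They describe only how the calls depend on the processing. Title numbers above 46 alone gave no value for either contrast with 17-21 days, as none of those 5 mice is among them. The labels give mice no shared replicate numbers, but the title numbers run in 5 sets with 1 mouse of each sex and age group. Of 75 pairs of adult mice of the same set and different groups, 55 had deviations from the group means that correlated over 0.1 (median 0.257), against 80 of 300 pairs from different sets (median -0.0884). Each group has 1 mouse per set, so taking out its mean pushes pairs from different sets below 0 when pairs of the same set correlate. The median of -0.0884 is therefore not an independent baseline. The correlation within sets is a hint from the data, not from the design. The counts with the sets as a replicate block are those given above.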
